A study of Mus musculus with 6 samples.

Results

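Nucleosides such as adenosine, uridine and thymidine cross membranes through carriers of the Slc29 and Slc28 gene families. The Slc29 genes encode equilibrative nucleoside transporters, which let nucleosides flow down their gradient in either direction. The Slc28 genes encode concentrative nucleoside transporters, which draw nucleosides into the cell together with sodium. Dipyridamole is a classical blocker of the equilibrative carriers of the cell surface and has little effect on the concentrative ones. The drug acts on the proteins, whereas RNA was measured here. The genes described are the 4 Slc29 genes Slc29a1, Slc29a2, Slc29a3 and Slc29a4 and the 3 Slc28 genes Slc28a1, Slc28a2 and Slc28a3. Together they are 7 of the 19938 genes to which the array's annotation gave a probe set of their own, and were selected by name as targets of dipyridamole or relatives of those targets. Each of the 7 had 1 probe set. Of these, 6 passed a filter that left out genes with a mean level below the 25th percentile, and Slc28a2 did not.

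RNA came from 6 mammary tumours of female MMTV-PyMT+ mice of the FVB strain, in which a mammary tumour virus promoter drives the polyoma middle T oncogene in mammary epithelium. The 3 treated tumours came from an arm of 10 mice given DPM, read here as dipyridamole from knowledge of the study, by injection into the peritoneum at 10 mg/kg. The 3 control tumours came from an arm of 7 mice injected with vehicle. Injections ran from 4 weeks of age for 11 weeks, with 5 days on and 2 days off, and all animals were 15 weeks old at the end. The labels call the 3 tumours of each group biological replicates, and do not say whether each came from a different mouse. If some did not, the p-values below measure a spread that is partly within animals. Whole solid tumour was used, so that fewer cells of a type and less RNA per cell cannot be told apart.

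Levels below are log2 of the array intensity after quantile normalisation, and differences are DPM minus vehicle on that scale. Intensities of different probe sets cannot be ranked against each other, because each binds its target with its own strength. Both arrays numbered 3 had brighter upper quartiles as deposited (869 for DPM, 887 for vehicle) than the rest (717 to 748). The luminal keratin genes Krt8 and Krt18, which define the glandular epithelium of these tumours, averaged 13.51 and 12.43 over the 6 arrays. In the limma fit over all genes that passed the filter, 0 of 14953 were called between DPM and vehicle (0%) at an adjusted p under 0.05. There were 578 genes (3.87%) at an unadjusted p under 0.05.

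The question put to the transporter genes was whether tumours that had grown under a blocker of nucleoside transport carried different levels of the RNA for the carriers. None of the 7 was called. Slc29a1 and Slc29a2, the cell surface carriers that dipyridamole blocks, had group means within 0.08 log2 units of each other. The 2 genes with the widest gap between means were Slc29a3, of the carrier of lysosomes and mitochondria, at 1.30 times the vehicle level (95% interval 1.08 to 1.58), and Slc28a3, of the broad sodium-coupled carrier, also at 1.30 times (0.943 to 1.78). The mean was higher in DPM for all 4 Slc29 genes and all 3 Slc28 genes, by as little as 0.01 for Slc29a2. It was so for 50.3% of all genes tested, which leave out Slc28a2. The 7 genes cannot be counted as independent, since their 21 pairs correlated over the 6 arrays at -0.40 to 0.83. The direction of 4 of the 7 turned when single arrays were left out. The plot of the 7 genes by array shows the values.

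**Figure D1:**
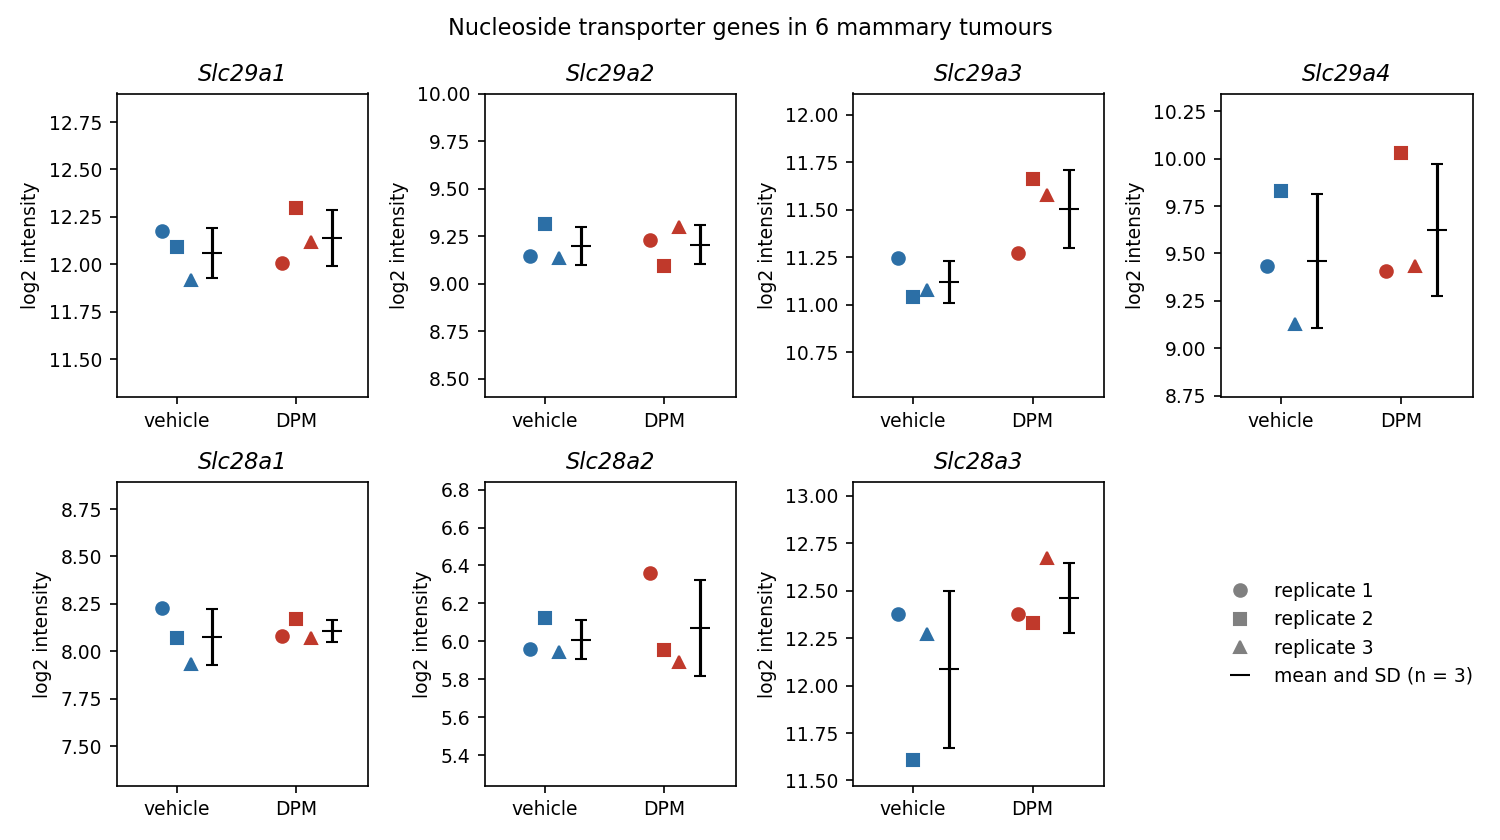
Log2 normalised intensity (vertical axis, spanning the same number of log2 units in each panel) of the 7 transporter genes on the 3 vehicle arrays (blue) and the 3 DPM arrays (red). Symbols give the replicate number and black bars the mean and SD of 3 arrays. The groups are apart for Slc29a3 by 0.02 log2 units and overlap for the other 6 genes, and vehicle replicate 2 is far below the rest for Slc28a3.

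The start sites of the 7 genes differed in base composition. RefSeq windows of the 250 bases before each annotated start (GRCm38.p6) were available for all 7, with 8 alternative starts for Slc29a1 and 1 start for each of the others. The GC content was 60.0% for Slc29a2, 63.6% for Slc29a3 and 68.8% for Slc29a4, against a median of 52.4% over 32851 windows of all genes, and it ranged from 51.2% to 73.2% over the starts of Slc29a1. It was 60.4% for Slc28a1, 45.2% for Slc28a2 and 53.6% for Slc28a3. The Slc29a2, Slc29a3 and Slc29a4 windows held 16, 15 and 16 CpG pairs, the 8 windows of Slc29a1 between 2 and 24, and those of Slc28a1, Slc28a2 and Slc28a3 held 4, 0 and 8, where the median of all windows was 6. The window of Slc28a2 was the one with no CpG. A link between CpG pairs and RNA level was not tested.

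The windows of Slc29a3 and Slc28a3 are shown because these genes had the widest gaps between group means of the 7. Capitals mark GGGCGG or its reverse complement CCGCCC, the letters of a GC box, which 32.7% of all windows of this length held on either strand. Slc29a3 held 3 matches and Slc28a3 held 2. Among the windows not printed, Slc29a4 held 9, Slc28a1 held 1, Slc29a2 and Slc28a2 held 0, and the starts of Slc29a1 held 0 to 5. The Slc29a3 window is chr10:60752783-60753032 and the Slc28a3 window chr13:58610878-58611127, both of the minus strand and written in the direction of transcription.
Slc29a3: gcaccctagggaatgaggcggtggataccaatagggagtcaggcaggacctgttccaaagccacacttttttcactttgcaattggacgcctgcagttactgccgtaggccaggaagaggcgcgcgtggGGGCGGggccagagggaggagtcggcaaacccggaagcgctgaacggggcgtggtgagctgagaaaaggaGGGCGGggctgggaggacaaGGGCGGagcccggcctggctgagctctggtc
Slc28a3: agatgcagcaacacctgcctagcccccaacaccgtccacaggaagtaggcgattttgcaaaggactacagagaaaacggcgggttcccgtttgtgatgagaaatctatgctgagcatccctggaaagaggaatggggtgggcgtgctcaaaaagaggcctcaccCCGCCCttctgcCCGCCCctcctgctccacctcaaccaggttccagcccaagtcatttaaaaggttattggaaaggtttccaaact
The matches are a description of the letters and bear on no factor.

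Slc29a1 encodes ENT1, the main equilibrative carrier of the plasma membrane for purine and pyrimidine nucleosides. Its levels were 12.01, 12.30 and 12.12 in DPM replicates 1 to 3, against 12.17, 12.09 and 11.92 in vehicle replicates 1 to 3. DPM replicate 2 was the highest and vehicle replicate 3 the lowest, and the remaining values of the groups were interleaved. The difference was 0.08 (SE 0.10, n = 3 each, limma adjusted p = 0.9996). Its 95% interval in fold terms ran from 0.893 to 1.25 times the vehicle level. The difference lay between 0.0012 and 0.15 over the 18 other settings tried, the lowest without DPM replicate 2. Changes of filter, probe set use, eBayes option or replicate block could not move it, because each transporter had 1 probe set and the groups were of equal size.

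Slc29a2 encodes ENT2, a second surface carrier that also takes nucleobases. Its levels were 9.23, 9.09 and 9.30 under DPM, against 9.14, 9.31 and 9.14 under vehicle. The highest and the lowest array lay 0.22 log2 units apart, the narrowest range of the 7 genes. The difference was 0.01 (SE 0.10, n = 3 each, limma adjusted p = 0.9996), with a 95% interval from 0.860 to 1.18 times the vehicle level. It was -0.06 without both arrays numbered 3 and between -0.04 and 0.07 with any 1 array left out.

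Slc29a3 encodes ENT3, an equilibrative carrier of lysosomes and mitochondria rather than of the cell surface. Its levels were 11.27, 11.66 and 11.58 under DPM, against 11.25, 11.04 and 11.08 under vehicle. DPM replicates 2 and 3 stood above every vehicle array, whereas DPM replicate 1 exceeded vehicle replicate 1 by only 0.02. The group means were 11.50 ± 0.21 in DPM and 11.12 ± 0.11 in vehicle tumours (SD, n = 3 each). The difference of 0.38 (SE 0.12) had an unadjusted limma p of 0.0127 and an adjusted p of 0.9996. The exact two-sided permutation test over the arrays gave p = 0.1, the smallest that 3 against 3 arrays allow.

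Slc29a3 was the 1 gene of the 7 whose groups did not overlap, where 6.97% of all genes tested did not overlap in either direction and 3.49% had every DPM value above every vehicle value. That separation depended on the normalisation. In the deposited intensities, 2234 on DPM replicate 1 lay below 2330 on vehicle replicate 1 and 2509 on vehicle replicate 3. The groups overlapped also after median centring, by 0.07 log2 units. The difference itself stayed between 0.30 and 0.50 over the 18 other settings tried, but those of filter, probe set, eBayes or block could not move it. The unadjusted limma p was under 0.05 in 16 of the 18 and the adjusted p in 0. The 2 settings with an interval that included 0 were no between-array normalisation (-0.05 to 0.81) and leaving out both arrays numbered 3 (-0.08 to 0.73). The smallest adjusted limma p, 0.478, came without DPM replicate 1.

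Slc29a4 encodes ENT4, also called the plasma membrane monoamine transporter, which moves serotonin and dopamine and takes adenosine in acid surroundings. Its levels were 9.41, 10.03 and 9.43 under DPM, against 9.43, 9.83 and 9.13 under vehicle. In both groups the array numbered 2 was the highest, by 0.59 log2 units over the next DPM array and by 0.40 over the next vehicle array. The spread within groups was 0.35 log2 units, wider than that of 95.03% of the genes tested, whose median was 0.13. The difference was 0.16 (SE 0.22, n = 3 each, limma adjusted p = 0.9996), with a 95% interval from 0.788 to 1.59 times the vehicle level. It turned to -0.04 without DPM replicate 2 and to -0.01 without vehicle replicate 3, and was 0.35 without vehicle replicate 2.

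**Figure D2:**
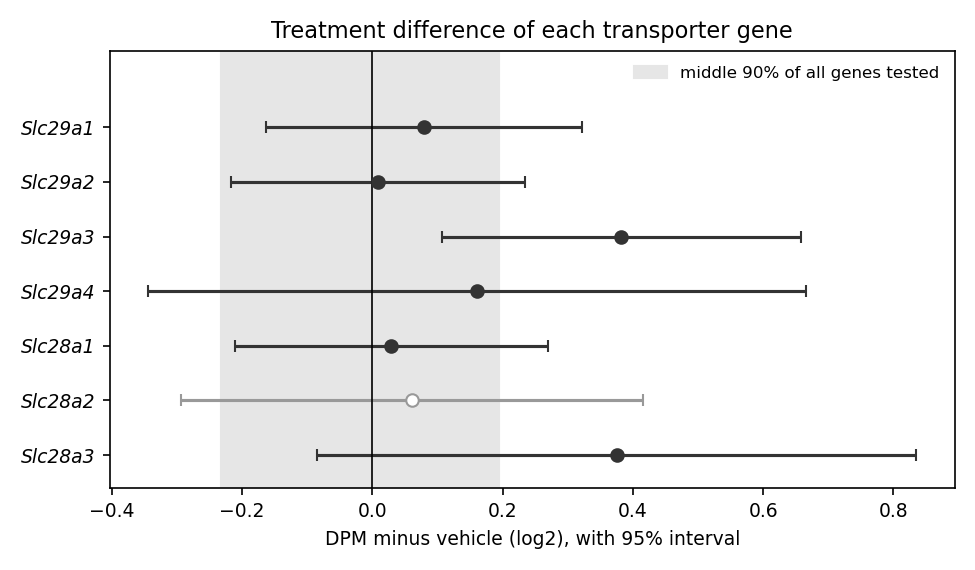
DPM minus vehicle on the log2 scale (horizontal axis) for each transporter gene, with its 95% interval from limma, n = 3 arrays per group. The open grey point is Slc28a2, which fell below the filter and was fitted without it. The grey band holds the middle 90% of the differences of all genes tested, from -0.23 to 0.19. The interval of Slc29a3 lies above 0 and the intervals of the other 6 genes include 0, none of the p-values being adjusted in this plot.

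Among the sodium-coupled carriers, Slc28a1 encodes CNT1, which prefers pyrimidine nucleosides. Its levels were 8.08, 8.17 and 8.07 under DPM, against 8.23, 8.07 and 7.93 under vehicle. The DPM values lay within the range of the vehicle values. The difference was 0.03 (SE 0.10, n = 3 each, limma adjusted p = 0.9996), and it was -0.04 without vehicle replicate 3. The filter at the 50th percentile removed this gene.

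Slc28a2 encodes CNT2, which prefers purine nucleosides such as adenosine. Its deposited intensities were 83, 59 and 62 under DPM, against 60, 72 and 62 under vehicle. DPM replicate 1 stood above the others, and the remaining values of the groups overlapped. Its mean of 6.04 lay below the filter, which fell at 7.24. No detection calls were used here, so the gene is not called absent. In the fit without the filter the difference was 0.06 (SE 0.15, n = 3 each, limma adjusted p = 1), and without DPM replicate 1 it was -0.08. The neighbouring paralog Slc28a2b, which is not among the 7, was also below the filter, with intensities of 105, 77 and 86 under DPM, against 65, 93 and 77 under vehicle.

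Slc28a3 encodes CNT3, which takes both purine and pyrimidine nucleosides and is known to be expressed in mammary gland in humans. Its levels were 12.38, 12.33 and 12.67 under DPM, against 12.37, 11.61 and 12.27 under vehicle. DPM replicate 3 was the highest. Vehicle replicate 2 stood 0.66 log2 units below its nearest neighbour, and its deposited intensity was 2812 against 4806 to 7301 on the other 5 arrays. The difference of 0.38 (SE 0.20, n = 3 each) had an adjusted limma p of 0.9996 and an exact permutation p of 0.2. It was 0.14 without vehicle replicate 2 and 0.52 without vehicle replicate 1, and leaving out that 1 low vehicle array moved the value more than any other omission. With array weights it was 0.22. The spread within groups, 0.32 log2 units, exceeded that of 93.7% of the genes tested.

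**Figure D3:**
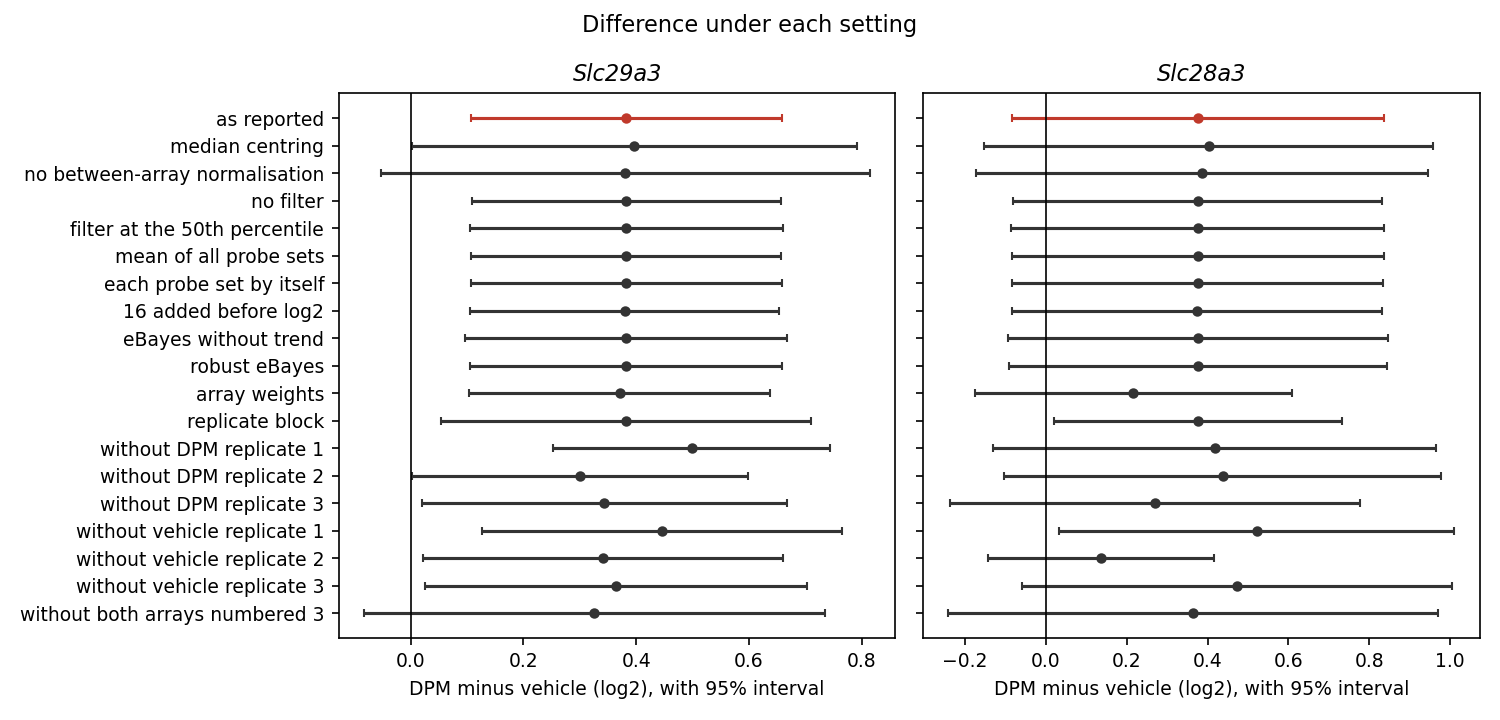
DPM minus vehicle (log2, horizontal axis) with 95% limma intervals for Slc29a3 (left) and Slc28a3 (right) as reported (red) and under each of 18 other settings (black). All values of both genes lie above 0, where settings of filter, probe set, eBayes or block repeat the reported difference. Slc29a3 runs from 0.30 to 0.50, and Slc28a3 from 0.14 without vehicle replicate 2 to 0.52 without vehicle replicate 1.

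Marker genes of the cell types in the tumours varied between the same arrays, and their part in the transporter values was not tested. The score of a marker list is the mean, over its members that passed the filter, of each log2 level minus the gene's mean over the 6 arrays. Basal and myoepithelial markers scored -0.06, -0.26 and -0.13 under DPM, against 0.08, 0.25 and 0.11 under vehicle. These groups did not overlap, and the order of the DPM arrays was the reverse of that of Slc29a3. Of these 10 basal markers, 9 had the lower mean in DPM and 0 were called. Their differences ran from -0.77 for Krt14 (SE 0.15) to 0.05. Groups did not overlap for 3 of the 10, beside 6.97% of all genes tested. The unadjusted limma p was under 0.05 for 3 of the 10, beside 3.87% of all genes tested. Macrophage markers scored 0.21, -0.18 and -0.27 under DPM, against -0.03, 0.03 and 0.24 under vehicle, and the 2 arrays with the lowest macrophage scores had the highest Slc29a3 levels. DPM replicate 1 had a macrophage score below only that of vehicle replicate 3. The Slc29a3 level of DPM replicate 1 exceeded the highest vehicle array by 0.02 log2 units, and after median centring lay 0.07 below it. Of the 10 macrophage markers, 9 had the lower mean in DPM, as did 9 of 9 fibroblast markers, where 50.3% of all genes tested had the higher mean in DPM. The median difference of the macrophage markers was -0.16, and 0.007 without both arrays numbered 3. That of the fibroblast markers was -0.30, and -0.04 without DPM replicate 3. Fibroblast markers scored 0.36, -0.03 and -0.82 under DPM, against 0.05 to 0.34 under vehicle. DPM replicate 3 had the lowest fibroblast score and the highest Slc28a3 level. DPM replicate 1 had the highest fibroblast score. Only DPM replicate 3 exceeded its Slc28a3 level of 12.38, and vehicle replicate 1 was close below at 12.37.

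Vehicle replicate 2, the low array for Slc28a3, had a luminal epithelium score of -0.03, and the luminal scores of all 6 arrays lay between -0.04 and 0.07. The brightest luminal markers, Krt8 (13.32), Ehf (12.75) and Krt18 (12.21), were each lowest on vehicle replicate 2. Their gaps to the next array were 0.12, 0.01 and 0.01 log2 units. Differences of the 12 luminal markers ran from -0.42 to 0.32, and 5 had the higher mean in DPM. Vehicle replicate 2 had the highest basal score and the lowest endothelium score, -0.14, of the 6 arrays. DPM replicate 1, the high array for Slc28a2, had an adipocyte score of 0.79 and a skeletal muscle score of 0.58, both the highest of the 6. The lymphocyte scores did not overlap either, at -0.00046, -0.07 and -0.08 under DPM against 0.07, 0.02 and 0.06 under vehicle. Only 4 of the 9 lymphocyte markers with a probe set passed the filter. All 4 had the lower mean in DPM, and each overlapped by itself. Differences of the markers below the filter lay on both sides of 0, from -0.20 to 0.014. The neutrophil score ranged from -0.12 to 0.13. The erythrocyte score, over only 2 genes that passed the filter, ranged from -0.18 to 0.25. In the 10 marker lists 0 genes were called.

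**Figure D4:**
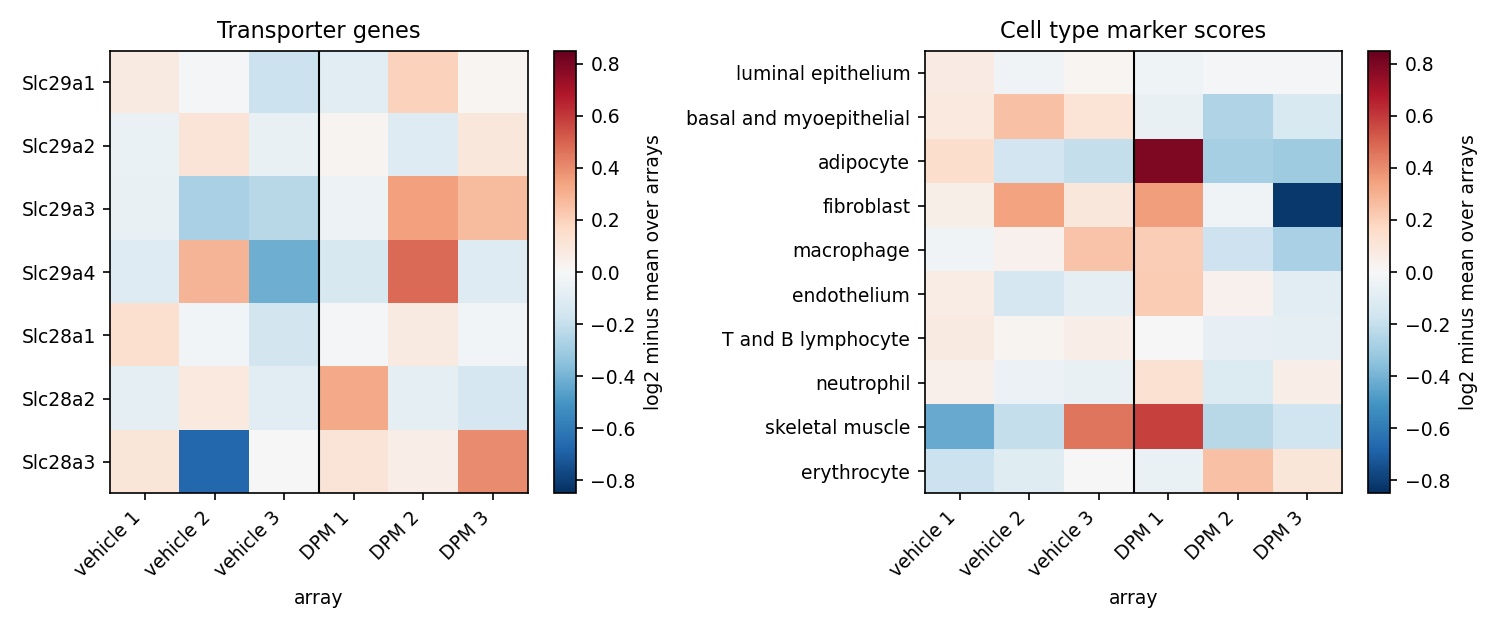
Log2 level minus the mean over the 6 arrays (colour) for the 7 transporter genes (left) and mean of the same over the members of each cell type marker list (right). Columns are arrays, with vehicle left and DPM right of the line. Slc28a3 on vehicle replicate 2 (-0.66) and Slc29a4 on DPM replicate 2 (0.48) are the farthest from 0 among the transporters, and the adipocyte score of DPM replicate 1 (0.79) and the fibroblast score of DPM replicate 3 (-0.82) among the markers.

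The enzymes and other carriers that make, use or export nucleosides were taken, with the adenosine receptors, as 5 lists of 41 genes. The 4 receptor genes are among the 41 but not among the 30 below. None of those that passed the filter was called (0 of 30), 20 of the 30 had the higher mean in DPM, and 3 of 30 did not overlap between groups, beside 6.97% of all genes tested. The ectonucleotidases, which turn extracellular nucleotides into adenosine step by step, listed with the release channel gene Panx1, had a higher DPM mean for 6 of 9 genes and a median difference of 0.07, where the median of all genes tested was 0.00055. Enpp3, a phosphodiesterase that cleaves nucleotides outside the cell, stood at 12.32, 12.33 and 12.30 under DPM, against 12.03, 12.08 and 11.95 under vehicle. The DPM values of Enpp3 were all above the vehicle values, by a difference in means of 0.30 (SE 0.07, n = 3 each, limma adjusted p = 0.949). Entpd1, the CD39 enzyme, differed by 0.44 (SE 0.19) with overlapping groups, and Entpd2 by 0.29 (SE 0.14) without overlap. The difference of the list that was largest in size was that of Nt5e, the CD73 enzyme that makes adenosine from AMP, at -0.46 (SE 0.28) with overlapping groups, a gene named after its value was seen. Leaving out DPM replicate 1 gave a list median of 0.22, and leaving out vehicle replicate 1 or 2 gave 0.24 or 0.15.

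Nucleoside kinases trap nucleosides inside the cell by phosphorylation, and 5 of 8 had the higher mean in DPM, with a median difference of 0.02, which was -0.017 without DPM replicate 2. Adk, which phosphorylates adenosine, stood at 10.32, 10.22 and 10.22 under DPM, against 10.07, 9.98 and 9.78 under vehicle. The groups of Adk did not overlap, and the difference of 0.30 (SE 0.10, n = 3 each) had an adjusted limma p of 0.9996. Tk1, the cytosolic thymidine kinase, differed by -0.34 (SE 0.15), and its second probe set gave -0.35. Uckl1, related to the uridine-cytidine kinases, differed by -0.26 (SE 0.12).

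Deaminases, phosphorylases and base salvage enzymes had the higher mean in DPM for 6 of 7 genes, with a median difference of 0.05, which came to 0.11 when DPM replicate 2 was left out and 0.12 when vehicle replicate 2 was. Cda, cytidine deaminase, differed by 0.37 (SE 0.23), Ada, adenosine deaminase, by 0.23 (SE 0.11), and Umps, of uridine monophosphate synthesis, by 0.09 (SE 0.11). All of these overlapped between the groups. The list's score was 0.13, 0.01 and 0.01 under DPM, against -0.05, -0.04 and -0.06 under vehicle, without overlap, whereas each of the 7 genes overlapped by itself. For this list, and for the basal and lymphocyte markers, how often a score separates by chance was not tested. Other carriers of nucleobases, nucleosides or nucleotides had the higher mean in DPM for 3 of 6 genes. Slc43a3, a nucleobase carrier, differed by -0.43 (SE 0.23), the nucleotide exporter gene Abcc5 by -0.19 (SE 0.19) and the efflux pump gene Abcg2 by 0.07 (SE 0.12). The 4 adenosine receptor genes were not analysed here.

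Genes of DNA synthesis and proliferation, which draw on the nucleoside supply, had the higher mean in DPM for 4 of 12 genes, with a median difference of -0.07 and differences from -0.12 to 0.14. That median was -0.15 without vehicle replicate 1, 0.02 without vehicle replicate 2 and 0.00093 without DPM replicate 2. The proliferation marker gene Mki67 differed by 0.14 (SE 0.14), and the replication helicase genes Mcm3 and Mcm6 by -0.12 (SE 0.13) and -0.11 (SE 0.14). None was called in the limma fit, and 0 of the 12 had an unadjusted p under 0.05.

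**Figure D5:**
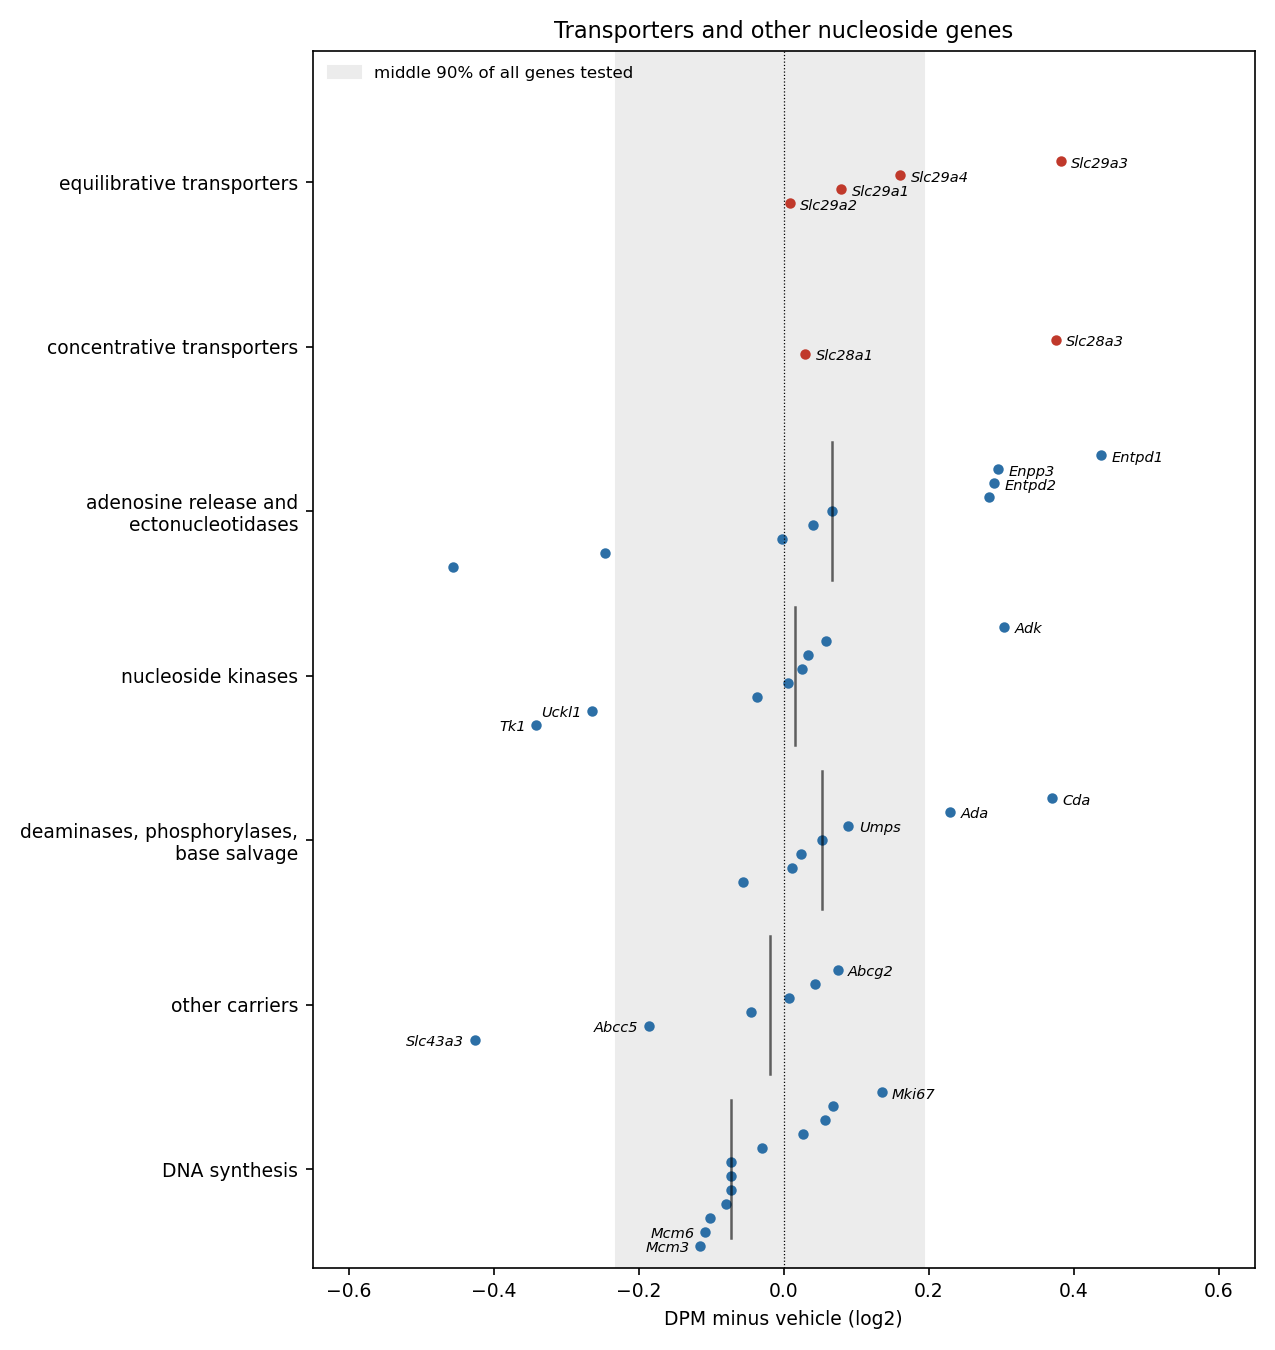
DPM minus vehicle (log2, horizontal axis) of the transporter genes (red) and of other nucleoside genes (blue) that passed the filter, 1 point per gene, in rows by role. Vertical bars are list medians and the grey band holds the middle 90% of all genes tested. Slc29a3 and Slc28a3 lie to the right of the band, as do, among the genes with a name beside their point, Entpd1, Enpp3, Entpd2, Adk, Cda and Ada, and Slc43a3, Tk1 and Uckl1 lie to its left.

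For each transporter that passed the filter, the genes whose 6 log2 levels followed it most closely were found by Pearson correlation over the 6 arrays, which share normalisation and tumour. This is a description, and with 6 arrays between 100 and 217 of the genes tested reached a correlation above 0.9 with each transporter. The genes most like Slc29a1 were Tgfbr3 (r = 0.994), Slc6a9 (0.990) and Bcas3 (0.988). Those most like Slc29a2 were Cdca7 (r = 0.993), Trbv1 (0.988) and Terf2ip (0.987). Slc29a3 was followed by Lmbrd2 (r = 0.995), Churc1 (0.992) and Fto (0.988), whose DPM means exceeded the vehicle means by 0.12 to 0.15 log2 units against 0.38 for Slc29a3. Slc29a4 was followed by Plppr3 (r = 0.995), Idua (0.981) and Snx32 (0.978). Slc28a1 had Akt1s1 (r = 0.992), Tamm41 (0.992) and Gdpd2 (0.991), and Slc28a3 had Kif1b (r = 0.996), Cdc42bpg (0.994) and Elmod3 (0.994). No gene stood in the top 3 of more than 1 transporter.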

How the data were processed

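Total RNA (100 ng) of each of 6 tumours was turned into biotinylated cRNA for 1-colour Affymetrix arrays, per the labels' protocols. The deposited values are intensities, linear and in whole numbers, for 35556 probe sets. Background correction, summarisation and scaling by the authors are not given in the sources used here.

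Values below 1 were set to 1, and log2 values were quantile-normalised. GEO's platform annotation gave 21789 probe sets 1 gene, 1621 several (left out) and 12146 none. Symbols were updated through Entrez identifiers for 21698. Each of 19938 genes took its brightest probe set over the 6 arrays, and 4985 below the 25th percentile were left out. DPM was compared with vehicle by limma 3.58.1 in R 4.3.3 (two-sided, eBayes with an intensity trend). P-values were adjusted by Benjamini-Hochberg over 14953 genes, with a threshold of 0.05. The script was tested on simulated data with planted differences of at least 1 log2 unit. These were larger than any transporter difference, so that test does not bear on differences of the size seen. Slc28a2 was fitted without the filter. Exact permutation tests used the 10 splits of the arrays. Arrays bear no depth, and their number limits the precision.

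The transporters, 6 pathway lists and 10 marker lists were chosen with earlier results of these data known. Named were the transporters, the 3 genes of each pathway list with the smallest p, the brightest markers or list scores, and the 3 genes most correlated with each transporter. Alternatives were median centring, no normalisation, other filters, 16 added before log2, other uses of probe sets, eBayes without trend or robust, array weights, the replicate number as a block, and arrays left out.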

Additional observations from a re-analysis of the deposited data

How the results depend on the processing

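No gene was called under any of the 18 other settings (smallest adjusted limma p 0.182). Changes of filter, probe set use, eBayes option or block repeated each reported transporter difference, so those values could not turn. Of 124 transporter values under other settings, these included, 113 kept their direction and all stayed above the adjusted threshold. Slc29a2, Slc29a4, Slc28a1 and Slc28a2 turned negative in 11. With 1 array left out, Slc29a2 ran from -0.036 to 0.066, Slc29a4 from -0.041 to 0.35, Slc28a1 from -0.042 to 0.11 and Slc28a2 from -0.083 to 0.15. Without both arrays numbered 3, Slc29a2 was -0.064 and Slc28a1 -0.023. The causes were not tested. The filter at the 50th percentile left no value for Slc28a1 and Slc28a2.

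The replicate numbers were not taken as pairs, since deviations from the group means over genes correlated at -0.12, 0.11 and 0.37 between arrays numbered 1, 2 and 3. Deviations sum to 0 within each group, so the 9 correlations across groups are tied to each other and each array must have a positive partner. The 3 highest of the 9 were DPM 3 with vehicle 3 (0.37), DPM 2 with vehicle 1 (0.22) and DPM 1 with vehicle 2 (0.17). The same 3 pairs shared the most equal deposited intensities (2.69 to 2.83% of probe sets, against 1.18 to 1.62% in other pairs). The labels name no batch to set these pairs against. With the replicate number as a block the count of genes called was 0, Slc29a3 had an adjusted p of 0.981 and Slc28a3 of 0.996 (0.0418 unadjusted).

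Of 253 list medians, 12 moved by more than the spread of the list's score. A list with a wide spread could change sign without being counted. With 1 array left out, adipocyte markers ran from -0.19 to 0.38 and skeletal muscle markers from -0.12 to 0.35, with 0 counted as moved. Ectonucleotidases were 0.18 with the filter at the 50th percentile, 0.15 with array weights and 0.066 to 0.24 with 1 array left out. With 1 array left out, kinases ran from -0.017 to 0.029, deaminases, phosphorylases and salvage from 0.016 to 0.12, luminal markers from -0.056 to 0.017 and lymphocyte markers from -0.14 to -0.076. Lymphocyte markers were -0.049 without a filter, and neutrophil markers -0.15 with the filter at the 50th percentile. Signal over background was not available to set a lower limit of detection.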
